A study of Mus musculus with 8 samples.

Results

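The circadian clock output genes described here are Dbp, Tef, Hlf, Per1, Per2, Per3, Nr1d1, Nr1d2 and Ciart, a set of 9 named genes. Of these, 8 have a row among the 33027 genes of the matrix, and Per3 was not analysed here. The genes were chosen by their values in smoke against room air, since Dbp had been seen to be higher after cigarette smoke in several lung cell types. Those values are therefore a description, and a combination of a gene and a cell type described below as called, by the fit over all genes, is no independent evidence of a difference. Single-cell RNA was measured in the lungs of 8 C57BL/6 mice of the Sftpc-CreERT2-mTmG line, kept under 12 h of light a day, 4 exposed to cigarette smoke (CS mice C2, C5, D2 and D5) and 4 to room air (RA mice F1, F3, M1 and M3), with 2 labelled male and 2 labelled female in each group. In all 8 mice, tamoxifen given at 8 to 10 weeks of age activated a Cre driven by Sftpc, a gene of alveolar type 2 (AT2) cells, and so switched the reporter from tdTomato to eGFP in those cells. Exposure began 2 weeks after tamoxifen, with litters split at random between the groups, and lasted 10 months, on 5 days of each week and for 6 h on each day, with 3R4F research cigarettes as the source of smoke. Right lungs were digested 1 day after the last exposure, and cells were mixed to 10% CD45+ (immune) and 90% CD45- cells, so the shares of immune cells were set by the mixing. The hour of the day at which each lung was taken is not given in the sources used here, and the time of collection and the exposure cannot be told apart.

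The molecular clock is a loop of transcription and translation that runs in almost every cell. CLOCK and BMAL1 (the product of Arntl) bind E-boxes and switch on their own repressors, among them the PER proteins and CHRONO (the product of Ciart), and also the nuclear receptors REV-ERB alpha and beta (Nr1d1 and Nr1d2), which repress Arntl through ROR elements. DBP, TEF and HLF are the PAR bZIP transcription factors, which carry the rhythm to output genes through D-boxes, and clock genes are known to cycle in lung epithelium, endothelium and fibroblasts.

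Per library, between 2553 and 6371 cells were kept, with total UMIs (unique molecular identifiers, counted molecules) from 33145096 to 48490570 in CS mice and from 31094695 to 52753531 in RA mice. Median UMIs per cell ran from 4557 to 6316 in CS mice and from 4254 to 6473 in RA mice. Of 40909 barcode sequences, 197 occurred in more than 1 library. The deposited cell types held their markers, with Sftpc at 1180 transcripts per 10,000 in AT2 cells and Ager at 165 in AT1 cells, and Pecam1 was highest in aerocytes, at 20.5, ahead of arterial endothelial cells, at 16.8. In the 4 RA libraries the sex-linked genes Xist and Ddx3y matched the labels, and in the 4 CS libraries they went against them. The libraries labelled male, C2 and C5, held Xist at 7.83 and 8.34 transcripts per 10,000, and those labelled female, D2 and D5, held Ddx3y at 0.925 and 1.08. With sex set by Xist as a term, an alternative chosen after seeing the data, the number of calls described below was 15 in place of 16.

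The 8 genes lie on chromosomes 1 (Per2), 3 (Ciart), 7 (Dbp), 11 (Hlf, Per1 and Nr1d1), 14 (Nr1d2) and 15 (Tef) of GRCm38. The 250 bases before the RefSeq starts were searched on both strands for the E-box CACGTG, the D-box TTATGTAA and the core of a ROR element, AGGTCA, because these are the elements of the loop to which the genes belong. Over 32851 starts of all genes, 6.02% held this E-box, 0.819% this D-box and 14.0% this core. Ciart held the E-box 3 times, at 116, 58 and 44 bases before its start, Tef held it once before each of 2 starts, and Per1 held it once before 1 of 2 starts. The 3 windows below show the E-box in capitals, and in Per1 also the AGGTCA core, read on the other strand.
Ciart, chr3:95882229-95882478, minus strand, GRCm38.p6: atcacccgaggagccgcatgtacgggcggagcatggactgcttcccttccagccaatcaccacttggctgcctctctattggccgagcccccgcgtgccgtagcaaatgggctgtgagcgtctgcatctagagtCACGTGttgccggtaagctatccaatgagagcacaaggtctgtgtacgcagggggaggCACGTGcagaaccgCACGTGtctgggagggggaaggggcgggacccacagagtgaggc
Tef, chr15:81811164-81811413, plus strand, GRCm38.p6: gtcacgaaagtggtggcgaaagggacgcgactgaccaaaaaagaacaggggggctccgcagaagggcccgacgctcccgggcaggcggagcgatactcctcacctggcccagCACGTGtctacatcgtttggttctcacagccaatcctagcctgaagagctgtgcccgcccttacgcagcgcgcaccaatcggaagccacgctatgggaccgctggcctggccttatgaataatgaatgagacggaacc
Per1, chr11:69098699-69098948, plus strand, GRCm38.p6: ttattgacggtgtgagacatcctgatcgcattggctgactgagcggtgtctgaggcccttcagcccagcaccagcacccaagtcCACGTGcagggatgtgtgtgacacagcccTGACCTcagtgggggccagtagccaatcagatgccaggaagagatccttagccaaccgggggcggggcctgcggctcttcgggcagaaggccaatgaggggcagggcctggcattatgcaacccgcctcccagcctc
The windows of Dbp, Hlf, Nr1d1 and Nr1d2 held no CACGTG, and none of the 7 genes that had a window held TTATGTAA. Nr1d2 held the AGGTCA core at 77 bases before its start. The window of Nr1d1 is shown beside those above as one with none of the 3 motifs.
Nr1d1, chr11:98775378-98775627, minus strand, GRCm38.p6: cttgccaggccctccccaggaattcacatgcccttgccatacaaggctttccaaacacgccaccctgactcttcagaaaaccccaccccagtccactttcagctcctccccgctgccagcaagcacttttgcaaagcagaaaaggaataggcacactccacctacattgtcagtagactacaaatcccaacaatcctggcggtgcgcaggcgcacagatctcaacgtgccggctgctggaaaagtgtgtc
The windows of Tef and Per1 lie inside the spans that GENCODE gives these genes (chr15:81802421-81826863 and chr11:69095217-69109960), before an inner start, that of Ciart reaches into its gene's first bases (chr3:95878503-95882251), and that of Nr1d1 lies outside its gene (chr11:98767932-98775333). A match of these letters describes the window only. Per2 had no entry.

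Levels are transcripts per 10,000 of a cell, averaged over the cells of a type in a mouse, and n counts mice. Averaged with equal weight over the 17 cell types that had at least 20 cells in every mouse, Dbp stood at 1.45 in C2, 1.08 in C5, 0.809 in D2 and 0.609 in D5, against 0.142 in F1, 0.335 in F3, 0.367 in M1 and 0.524 in M3. The groups did not overlap, but the gap from D5 to M3 was small beside the spread within each group. The mean was 0.985 ± 0.363 (SD, n = 4) in CS mice and 0.342 ± 0.157 (SD, n = 4) in RA mice, a ratio of 2.88. Tef, Hlf, Per2, Nr1d1, Nr1d2 and Ciart also had all CS mice above all RA mice on this average, with ratios from 1.37 for Per2 to 1.99 for Hlf. The share of all genes whose groups lay apart on this average was not computed. As these values chose the genes, nothing is read from how many did. For Per2 the groups all but touched, with D5 and M3 both at 0.364. Per1 differed, with a ratio of 1.18 and CS mouse C5, at 0.612, below the RA mice M1, at 0.708, and M3, at 0.790.

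**Figure D1:**
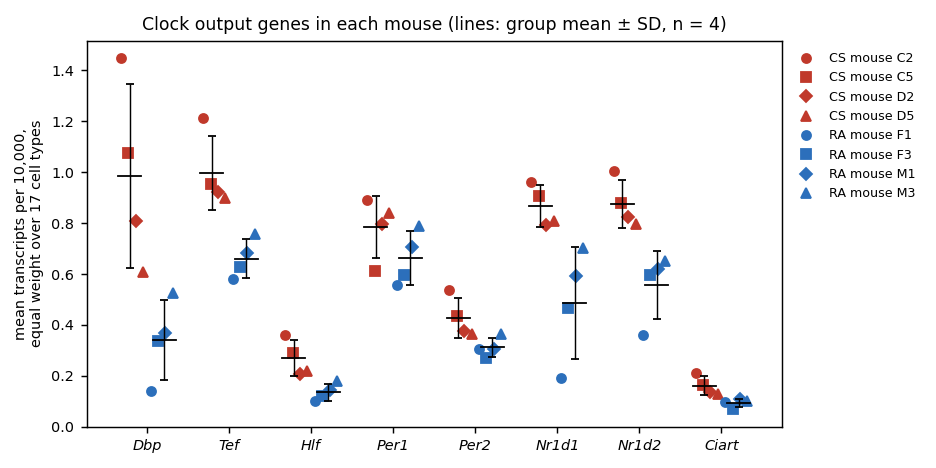
Level of each of the 8 genes in each mouse, as mean transcripts per 10,000 with equal weight over 17 cell types (y axis). Each point is 1 mouse (red, CS; blue, RA), and black lines give the group mean ± SD of 4 mice; the groups overlap for Per1 alone, and C2 is the highest CS mouse in every gene.

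Levels in cell types and lineages were not part of the choice and were tested. For this, the types were averaged into 5 lineages in each mouse, and each pair of lineages was compared by an exact two-sided sign-flip permutation test over the 8 mice on log2(level + 1), with Benjamini-Hochberg adjustment over 80 pairs. The stromal lineage holds adventitial and alveolar fibroblasts only, and the lymphoid lineage B and T cells. Alveolar macrophages, classical monocytes and neutrophils make up the myeloid lineage. AT1, AT2, ciliated, club and goblet cells form the epithelial lineage. Aerocytes and gCap (general capillary), arterial, venous and lymphatic cells form the endothelial lineage. The smallest p that 8 mice allow is 0.00781. Of the 80 pairs, 69 passed an adjusted p of 0.05. The mice of both exposures enter these means, so their SD holds the difference between CS and RA mice.

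The 3 PAR bZIP genes had different orders of lineages. Dbp was highest in the stromal lineage, at 1.70 ± 1.07 (SD, n = 8), with 0.791 ± 0.677 in endothelial and 0.711 ± 0.369 in epithelial cells. It was low in immune cells, at 0.0964 ± 0.0350 in lymphoid and 0.0606 ± 0.0325 in myeloid cells, a pair that did not pass (adjusted p = 0.0528, exact sign-flip test). Stromal cells exceeded both endothelial and epithelial cells in 7 of 8 mice (adjusted p = 0.0192 for each pair, exact sign-flip test), whereas epithelial and endothelial cells could not be told apart (adjusted p = 0.906, exact sign-flip test). Epithelial cells were the higher of that pair in 6 of 8 mice, with means of 0.404 against 0.327 in RA mice and 1.02 against 1.26 in CS mice. Tef was highest in epithelial cells, at 1.57 ± 0.255 (SD, n = 8), and above all in AT1 cells, the flat cells of gas exchange, where it reached 3.62 ± 0.429 with a lowest mouse of 3.12. Not all epithelial types were high, as goblet cells, at 0.738, and AT2 cells, at 0.540, had lower means than alveolar fibroblasts, at 1.15. Hlf was highest in stromal cells, at 0.962 ± 0.458 (SD, n = 8), with 0.216 ± 0.120 in endothelial and 0.156 ± 0.0516 in lymphoid cells. Endothelial and lymphoid cells could not be told apart for Hlf (adjusted p = 0.238, exact sign-flip test). The lymphoid mean mixes T cells, at 0.309, with B cells, at 0.00311. Likewise the endothelial mean mixes lymphatic endothelial cells, at 0.385, with aerocytes, at 0.0106. In epithelial cells Hlf was at 0.0167 ± 0.00671 and in myeloid cells at 0.0137 ± 0.0147, a pair that did not differ beyond its spread (adjusted p = 0.601, exact sign-flip test). Its level was higher still in 2 types that lacked 20 cells in some mice and so entered no lineage, peribronchial fibroblasts, at 3.21 ± 0.576 in CS mice against 1.78 ± 0.772 in RA mice (SD, n = 3 each), and mesothelial cells, at 3.66 ± 0.592 (SD, n = 3) and 2.62 ± 0.474 (SD, n = 4).

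Among the repressors of CLOCK and BMAL1, Per1 was found in all 5 lineages. It stood at 1.15 ± 0.261 (SD, n = 8) in stromal, 0.916 ± 0.235 in myeloid, 0.769 ± 0.154 in endothelial, 0.630 ± 0.0906 in lymphoid and 0.429 ± 0.0637 in epithelial cells. Per1 in endothelial cells could not be told apart from that in myeloid (adjusted p = 0.108) or lymphoid cells (adjusted p = 0.0771, exact sign-flip tests). Its highest mean by type was in neutrophils, at 1.59 ± 0.478 (SD, n = 8), where Dbp stood at 0.0581 ± 0.0428. For Per1, neutrophils were above alveolar fibroblasts, at 1.46 ± 0.355, in 4 of 8 mice (adjusted p = 0.719 over 16 pairs of types, exact sign-flip test). The other myeloid types, classical monocytes and alveolar macrophages, held Per1 at 0.580 and 0.578. Epithelial cells, the lowest lineage for Per1, were the highest for Per2, at 0.638 ± 0.128 (SD, n = 8), and lymphoid cells were its lowest at 0.0563 ± 0.0198. Ciliated cells held the most Per2, at 1.06 ± 0.178 (SD, n = 8), above club cells, at 0.735 ± 0.198, in 8 of 8 mice (adjusted p = 0.0417 over 16 pairs of types for Per2 alone, exact sign-flip test). Ciart was highest in the endothelial lineage, at 0.265 ± 0.110 (SD, n = 8), led by gCap cells, the general capillary cells, at 0.552 ± 0.103.

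Both REV-ERB genes were, like Dbp, highest in the stromal lineage. Nr1d1 stood at 1.47 ± 0.588 (SD, n = 8) in stromal, 0.917 ± 0.418 in endothelial and 0.715 ± 0.208 in epithelial cells, and at 0.0651 ± 0.0273 in lymphoid and 0.0969 ± 0.0371 in myeloid cells. Its epithelial and endothelial levels could not be told apart (adjusted p = 0.0771), nor could its lymphoid and myeloid levels (adjusted p = 0.108, exact sign-flip tests). Nr1d2 stood at 1.25 ± 0.439 (SD, n = 8) in stromal cells and was held by lymphoid cells too, at 0.406 ± 0.0928. The 17 types were also put in the order of their level. Each of the 8 genes gives 16 pairs of neighbours, and 3 of all these pairs passed an adjusted p of 0.05 in the sign-flip test. With 8 mice and 16 pairs a gene, a pair that stands alone cannot pass even at the smallest possible p, so types that did not pass are not shown to be alike. All 3 were pairs of Per2, and for the other genes the smallest adjusted p was 0.0625. Tef in AT1 cells, for one, was above that in club cells, at 1.70 ± 0.461 (SD, n = 8), in 8 of 8 mice and did not pass (adjusted p = 0.0625, exact sign-flip test). With any 1 mouse left out, none passed, and 7 mice allow no p below 0.0156. With summed counts in place of averaged cells 6 pairs passed, and with cells at most 5% mitochondrial 9 passed.

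**Figure D2:**
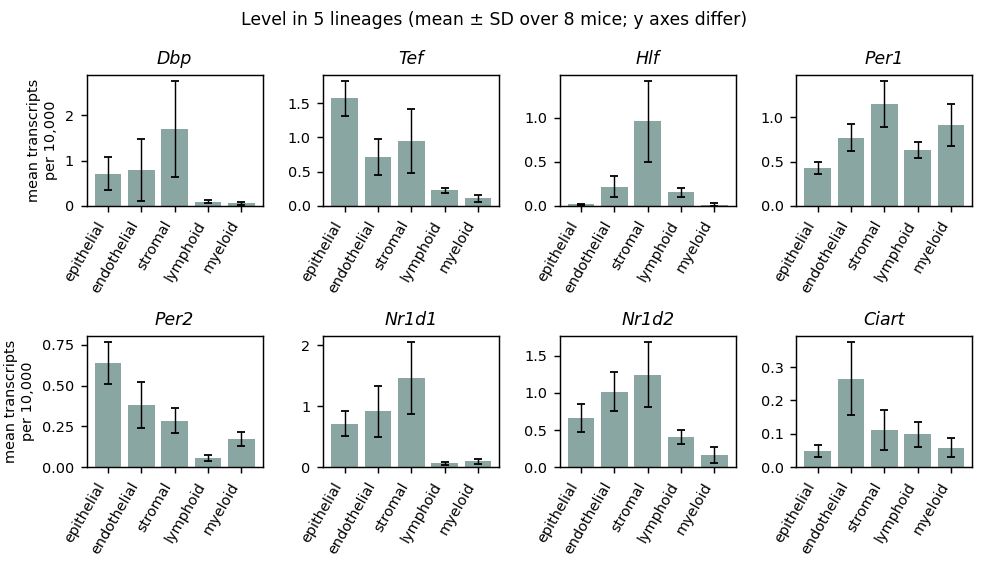
Level of each gene in 5 lineages, as mean transcripts per 10,000 (y axis, a separate scale for each gene). Bars are means over 8 mice and lines the SD. Tef and Per2 peak in epithelial, Ciart in endothelial, and Dbp, Hlf, Per1, Nr1d1 and Nr1d2 in stromal cells. Stromal cells here are adventitial and alveolar fibroblasts only.

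Of the 9424 genes with enough cells in at least 11 of 22 types, the gene most like Dbp over cell types was Nr1d1, with a Pearson r of 0.91 over 22 type means on the log2 scale. Tceal1 (r = 0.91), Maged2 and Nradd (both r = 0.90) and the transcript Gm26802 (r = 0.90) came next. Nr1d2 was at rank 7 (r = 0.90), Hlf at rank 279 (r = 0.73), Tef at rank 884 (r = 0.60), Per2 at rank 1558 (r = 0.50), Ciart at rank 3375 (r = 0.28) and Per1 at rank 3439 (r = 0.28). The 22 points share libraries, and types of 1 lineage are not independent, so these values are a description.

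Turning to smoke exposure, 22 cell types had at least 3 mice with 20 cells in each group, which gives 176 combinations of gene and type. In 130 of them the gene was found in at least 5% of cells as a mean over all mice, and these were fitted by limma on log2(level + 1) together with all other genes of the type. Relative to RA mice, 120 of the 130 differences were positive, with a median of 0.19 on the log2 scale, while the median over all genes tested in a type lay between -0.0023 and 0.0258. At an adjusted p of 0.05, 16 were called higher in CS mice and 0 lower, where 0.49% of the 210809 tests over all genes were called higher and 0.351% lower. At an unadjusted p of 0.05 the counts were 70 higher and 0 lower, where 8.1% of all tests were higher and 5.5% lower. Since these values chose the genes, and the outcome for Dbp was known beforehand, nothing is read from these counts. The calls fell on 6 genes and 8 cell types, with 4 in gCap cells, 4 in adventitial fibroblasts, 2 in AT1 cells, 2 in arterial endothelial cells and 1 each in ciliated cells, club cells, aerocytes and goblet cells. Over all 176 combinations, the lowest CS mouse was above the highest RA mouse in 44, and the highest CS mouse was below the lowest RA mouse in 1; of the 44, 37 had been fitted. Among all genes fitted this held for 5.52% upward and 4.14% downward. Counted over the fitted genes of a type, as are the shares of all genes, the groups lay apart upward for 6 of 8 genes in adventitial fibroblasts (6.93% of all genes), 4 of 8 in gCap cells (12.6%) and 4 of 7 in peribronchial fibroblasts (6.97%), which had 3 mice a group. The count was 3 of 8 in arterial endothelial cells (3.94%), club cells (4.26%) and alveolar fibroblasts (5.82%), and 3 of 7 in AT1 cells (5.42%) and goblet cells (6.91%). It was 2 of 7 in aerocytes (8.23%), 2 of 6 in ciliated cells (8.71%), 2 of 5 in T cells (4.99%), 1 of 8 in lymphatic endothelial cells (2.73%) and 1 of 3 in classical monocytes (3.48%). There were 0 in AT2 cells (2.35%), venous endothelial cells (5.23%), mesothelial cells (6.5%), alveolar macrophages (2.62%), B cells (3.96%) and neutrophils (4.51%), and in the types with 3 RA mice, non-classical monocytes (4.02%), NK and cytotoxic T cells (4.22%) and cells labelled mast (5.01%).

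**Figure D3:**
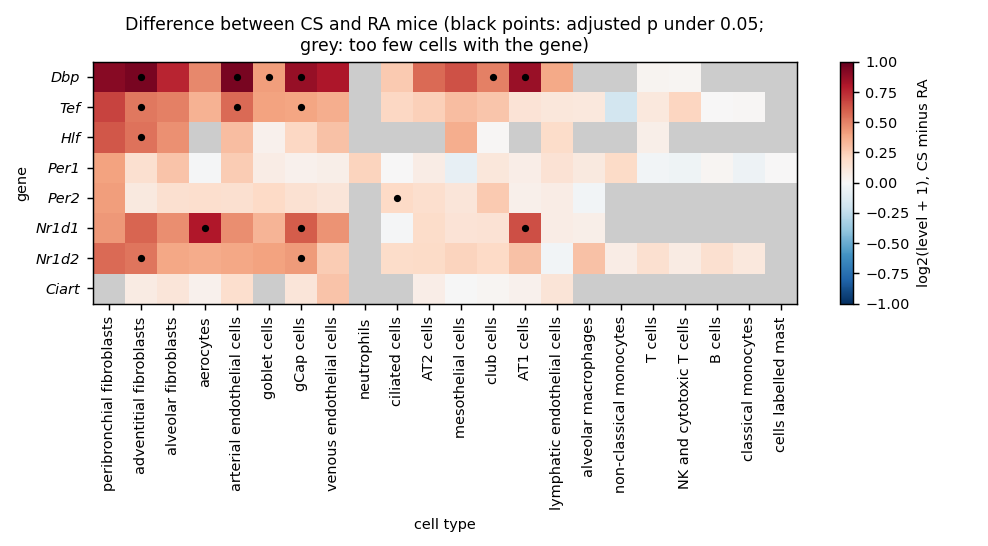
Difference between CS and RA mice on the log2(level + 1) scale (colour) for 8 genes (rows) and 22 cell types (columns). Black points mark the 16 combinations called at an adjusted p of 0.05, and grey marks the 46 that were not fitted; the strongest red, 0.95, lies in Dbp in arterial endothelial cells and adventitial fibroblasts, T cells and NK and cytotoxic T cells are pale for Dbp, at 0.02, and the other immune types were not fitted for Dbp.

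The number of calls depended on single mice. With the sequencing lane as a term, each lane holding 1 CS and 1 RA mouse, 4 of 130 were called. Leaving out 1 mouse gave 2 calls without C2, 3 without D5, 4 without C5 or F3, 5 without D2, 8 without M1 and 10 without F1 or M3, and with no filter on low values there was 1 call. Over the alternatives, Dbp in AT1 cells was called in 19 of 19. The other 15 combinations were called less often, from 7 of 19 for Per2 in ciliated cells, 9 of 18 for Dbp in goblet cells and 9 of 19 for Nr1d2 in adventitial fibroblasts to 13 of 19 for Tef and Nr1d2 in gCap cells and 13 of 18 for Dbp in arterial endothelial cells, with 10 of 19 for Dbp in gCap cells. Apart from the pseudocount, the log2 difference of Dbp ran from 0.78 to 1.10 in arterial endothelial cells, from 0.66 to 1.04 in gCap cells and from 0.77 to 0.93 in AT1 cells, and that of Nr1d2 in gCap cells from 0.37 to 0.46. A pseudocount of 1 holds down the log2 difference of all of these low genes. With 0.1, that of Dbp was 2.19 in AT1 cells, 1.97 in gCap cells, 1.85 in arterial endothelial cells, 1.78 in adventitial fibroblasts, 1.67 in goblet cells and 1.31 in club cells. That of Tef was 1.08 in arterial endothelial cells, 1.13 in adventitial fibroblasts and 0.91 in gCap cells, and that of Hlf in adventitial fibroblasts was 1.09. For Per2 in ciliated cells it was 0.36, for Nr1d1 1.65 in aerocytes, 1.29 in AT1 cells and 1.31 in gCap cells, and for Nr1d2 0.99 in adventitial fibroblasts and 0.80 in gCap cells.

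Dbp, the D-box activator for which the set was chosen, was called in 6 of the 16 types where it was fitted. In arterial endothelial cells it stood at 3.01 in C2, 2.08 in C5, 1.41 in D2 and 1.03 in D5, and at 0.272 in F1, 0.344 in F3, 0.293 in M1 and 0.948 in M3. The groups did not overlap, but the RA mouse M3 was close to D5, and the CS mice were themselves spread from C2 down to D5. The means were 1.88 ± 0.871 and 0.464 ± 0.324 (SD, n = 4 each), a ratio of 4.05 and a log2 difference of 0.95 (SE 0.177), in a type where 0.236% of all genes were called higher.

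In adventitial fibroblasts, the cells of the sheath around vessels and airways, Dbp stood at 2.81, 2.57, 1.61 and 1.44 in C2, C5, D2 and D5, and at 0.124, 0.675, 0.936 and 0.717 in F1, F3, M1 and M3. The RA mouse F1 lay far below the other RA mice, and the groups did not overlap. The log2 difference was 0.95 (SE 0.173), with a ratio of 3.44, and 1.19% of all genes were called higher in this type. In gCap cells the values were 2.55, 1.52, 0.961 and 0.622 in the CS mice and 0.150, 0.174, 0.215 and 0.550 in the RA mice, in the same order of mice. D5 and M3 were close, and the other RA mice were well below both. Here the log2 difference was 0.87 (SE 0.206), the ratio 5.19, and 4.1% of all genes were called higher.

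In AT1 cells Dbp stood at 1.65, 1.43, 0.880 and 0.919 in C2, C5, D2 and D5, and at 0.0124, 0.256, 0.216 and 0.383 in F1, F3, M1 and M3. The lowest CS mouse, at 0.880, was well above the highest RA mouse, at 0.383, and F1 again lay lowest. The log2 difference was 0.86 (SE 0.110), a ratio of 5.62, where 0.99% of all genes were called higher. Mitochondrial transcripts made up 1.75% to 3.26% of AT1 transcripts in CS mice and 1.33% to 1.71% in RA mice, and the part of this in the Dbp difference was not tested. The summed level of 3 AT1 markers was lower in AT1 cells of CS mice, at 228 to 270 against 271 to 313, and its part in the Dbp difference was not tested.

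The remaining calls of Dbp were in airway secretory cells. In club cells Dbp was at 0.919, 0.843, 0.790 and 0.758 in C2, C5, D2 and D5 and at 0.135, 0.317, 0.258 and 0.457 in F1, F3, M1 and M3, a ratio of 2.84 and a log2 difference of 0.51 (SE 0.0681) where 0.0526% of all genes were called higher. The CS mice lay within a narrow band there, 0.828 ± 0.0706 (SD, n = 4). In goblet cells the CS mice held 0.521, 0.374, 0.514 and 0.303 and the RA mice 0.00867, 0.101, 0.0777 and 0.0850, a ratio of 6.29 and a log2 difference of 0.42 (SE 0.0603) where 0.0825% of all genes were called higher. The goblet values rest on 23 to 71 cells in a CS mouse and 25 to 137 in an RA mouse, and this ratio has a low denominator. A list of 5 mural cell markers was also higher in CS mice in both types, at a summed level of 0.489 to 0.587 against 0.180 to 0.337 in club cells and 0.542 to 0.761 against 0.146 to 0.322 in goblet cells, with 3 of 5 markers higher and Cspg4 near 0. Its part in the Dbp difference was not tested.

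**Figure D4:**
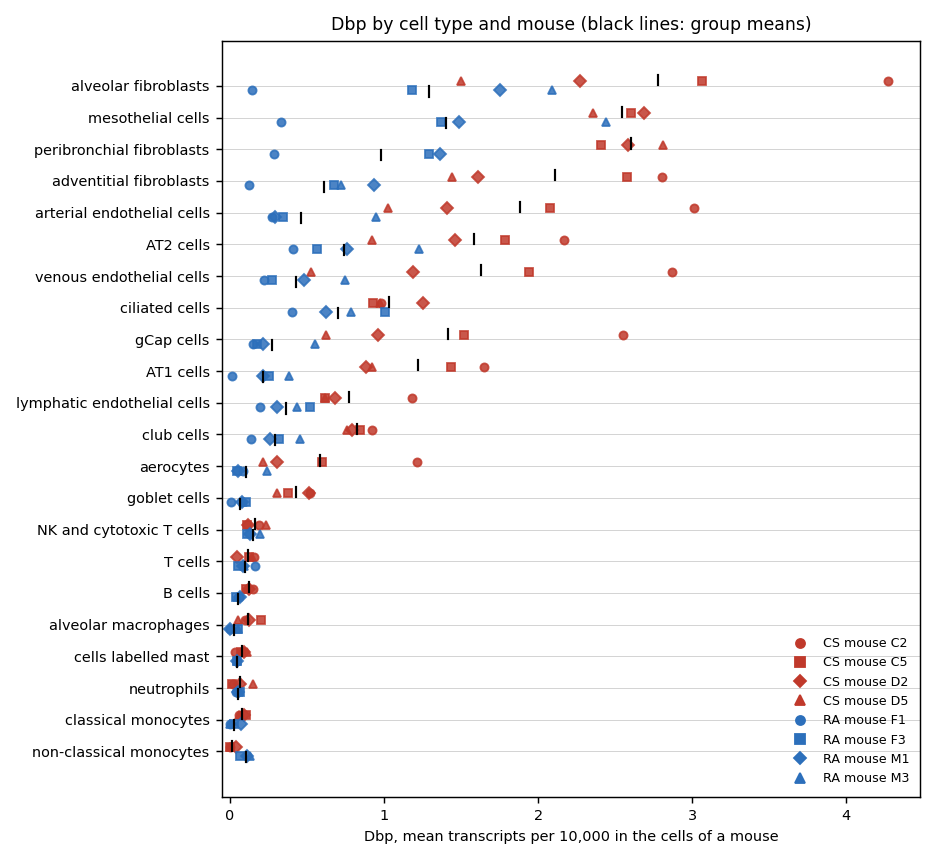
Dbp in each mouse (points; red, CS; blue, RA) in 22 cell types (rows, ordered by mean level), as mean transcripts per 10,000 (x axis). Black lines are group means; in fibroblasts, endothelial cells and AT2 cells C2 is mostly the point farthest right and F1 the point farthest left, and immune types lie near 0.

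The log2 difference of Dbp nearest to being called was that in aerocytes, with 1.22, 0.597, 0.304 and 0.214 in the CS mice and 0.0818, 0.0477, 0.0509 and 0.239 in the RA mice, and of the 6 calls the one nearest to the threshold was that in gCap cells. D5 lay just below M3 in aerocytes. Other types outside the call had log2 differences as large as those inside. In peribronchial fibroblasts, with 3 mice a group, Dbp was at 2.41 to 2.81 in CS mice and 0.289 to 1.36 in RA mice, a log2 difference of 0.91 (SE 0.225). In venous endothelial cells it was 0.81 (SE 0.224) and in alveolar fibroblasts 0.76 (SE 0.276), where the mice ranged from 1.50 to 4.27 and from 0.142 to 2.09 and the groups overlapped. AT2 cells, the source of surfactant, ran from 0.925 to 2.17 in CS mice and from 0.408 to 1.23 in RA mice, and D5 lay below M3. In T cells the log2 difference was 0.02 (SE 0.0427) and in NK and cytotoxic T cells 0.02 (SE 0.0758), at ratios of 1.19 and 1.10. At the low levels of immune cells this scale can show little, and by lineage Dbp was at 0.119 in CS and 0.0742 in RA mice in lymphoid cells and at 0.0867 and 0.0344 in myeloid cells.

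The other PAR bZIP genes had smaller differences. Tef was called in 3 of 20 fitted types. Of all genes, 0.236% were called higher in arterial endothelial cells, 1.19% in adventitial fibroblasts and 4.1% in gCap cells. In arterial endothelial cells Tef stood at 1.75, 1.14, 1.38 and 1.32 in C2, C5, D2 and D5 and at 0.751, 0.400, 0.554 and 0.775 in F1, F3, M1 and M3, a ratio of 2.25 and a log2 difference of 0.57 (SE 0.110). In adventitial fibroblasts the CS mice held 1.60, 1.002, 0.776 and 0.873 and the RA mice 0.309, 0.488, 0.512 and 0.378, a ratio of 2.52 and a log2 difference of 0.52 (SE 0.104). The groups did not overlap in either type, and C2 was the highest CS mouse in both. In gCap cells Tef was at 1.15, 0.880, 0.724 and 0.725 against 0.417, 0.270, 0.432 and 0.549, a ratio of 2.09 and a log2 difference of 0.40 (SE 0.0796). In AT1 cells, where Tef was highest, the mice ran from 3.28 to 4.35 in CS and from 3.12 to 3.83 in RA and the groups overlapped. Hlf was called in adventitial fibroblasts alone of 11 fitted types, a type where 1.19% of all genes were called higher. It stood there at 1.66, 1.48, 0.846 and 0.851 in the CS mice and 0.352, 0.528, 0.631 and 0.481 in the RA mice, a ratio of 2.43 and a log2 difference of 0.54 (SE 0.116).

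The period genes and Ciart had few calls. Per1 was called in 0 of 22 fitted types by limma (3 at an unadjusted p of 0.05, against 8.1% of all tests higher), with log2 differences from -0.08 to 0.41 and a median of 0.07. In gCap cells it was at 1.001, 0.483, 0.820 and 0.917 in C2, C5, D2 and D5 and at 0.748, 0.581, 0.854 and 0.787 in F1, F3, M1 and M3, so that the RA mice lay within the range of the CS mice. Per2 was called in ciliated cells alone of 15 fitted types, a type where 2.16% of all genes were called higher. It stood there at 1.30, 1.13, 1.19 and 1.22 in the CS mice and 0.812, 1.09, 0.895 and 0.885 in the RA mice, a ratio of 1.31 and a log2 difference of 0.20 (SE 0.0485), and F3 came close to C5. Ciart was called in 0 of 11 fitted types by limma (5 at an unadjusted p of 0.05), with a median log2 difference of 0.08 at levels where the pseudocount holds it down, and its ratio over the 17 types was 1.71. In gCap cells, where it was highest, it ran from 0.509 to 0.683 in CS mice and from 0.393 to 0.588 in RA mice.

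The REV-ERB genes were called in capillary cells, AT1 cells and fibroblasts. Of all genes, 0.99% were called higher in AT1 cells, 1.19% in adventitial fibroblasts and 4.1% in gCap cells. Nr1d1 in aerocytes, the capillary cells specialised for gas exchange, stood at 2.08, 1.98, 1.22 and 1.14 in C2, C5, D2 and D5 and at 0.139, 0.327, 0.655 and 0.902 in F1, F3, M1 and M3. The ratio was 3.17 and the log2 difference 0.80 (SE 0.160), and 0.72% of all genes were called higher in aerocytes. In AT1 cells it stood at 1.84, 1.67, 1.38 and 1.48 against 0.166, 0.614, 0.866 and 1.12, a ratio of 2.3 and a log2 difference of 0.65 (SE 0.135). The RA mice fell into the order F1, F3, M1, M3 in both types, with F1 lowest. In gCap cells the CS mice lay close together, at 1.43, 1.14, 1.29 and 1.32, and the RA mice were spread from 0.159 to 0.944, a ratio of 2.41 and a log2 difference of 0.60 (SE 0.134). Nr1d2 was called in adventitial fibroblasts, at 1.73, 1.22, 1.52 and 1.54 against 0.347, 0.863, 0.951 and 0.803 (ratio 2.03, log2 difference 0.53, SE 0.111), and in gCap cells, at 1.44, 1.19, 1.23 and 1.17 against 0.499, 0.657, 0.786 and 0.814 (ratio 1.83, log2 difference 0.42, SE 0.0672). All 8 genes were fitted in gCap cells, where a list of 9 genes of the dissociation response was lower in CS mice, at a summed level of 41.0 to 71.4 against 86.9 to 115, and its part in these differences was not tested. The summed level of 3 gCap markers was also lower in gCap cells of CS mice, at 23.5 to 28.2 against 30.3 to 33.3, as was that of 5 endothelial markers in arterial endothelial cells, at 50.1 to 53.2 against 57.8 to 66.0, and that of the 3 gCap markers there, at 11.8 to 13.0 against 13.9 to 19.3. The part of these was not tested either. In arterial endothelial cells, 2 of the 5 endothelial markers and 1 of the 3 gCap markers had a higher mean in CS mice. Over the 6 types with Dbp called, 67 pairs of a type with a list of other cells' markers or with the dissociation response were looked at. The mural lists in club and goblet cells were the 2 that lay apart upward, and the dissociation response in gCap cells was the 1 that lay apart downward.

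The spread between single mice was large and recurred from type to type. Among the 20 types with all 4 CS mice, C2 was the highest CS mouse for Dbp in 13 and D5 the lowest in 10. Among the 18 types with all 4 RA mice, F1 was the lowest for Dbp in 15 and M3 the highest in 9. F1 was also the lowest RA mouse for Nr1d1 in 13 and for Nr1d2 in 13 of the 18 types, but for Per2 in 7 and for Ciart in 4. C2 was the highest CS mouse for Tef in 12, Hlf in 12 and Per2 in 13 of the 20 types, while for Nr1d1 it was most often D5, in 9. For Per1, C5 was the lowest CS mouse in 13 types. In these counts a tie, as between mice at 0, went to the first of the tied mice. The order was C2, C5, D2, D5 in CS and F1, F3, M1, M3 in RA mice. By the sex labels, which in CS mice went against Xist, the CS mice labelled male were both above those labelled female for Dbp in 9 of 20 types and below in 2, and in RA mice in 6 of 18 and 0. C2 and F1 share lane 1, D2 and F3 lane 2, C5 and M1 lane 3, and D5 and M3 lane 4.

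To see which genes vary with Dbp from mouse to mouse inside an exposure group, the deviation of each mouse from its group mean was taken in the 16 types where Dbp was fitted, 124 values in all. Among 5803 genes fitted in all of these types, Tef was the most like Dbp (r = 0.69), followed by Nr1d2 (r = 0.67), Acads (r = 0.59), mt-Atp6 (r = 0.54) and Dpysl2 (r = 0.49). Hlf, Per2, Nr1d1 and Ciart were not fitted in all of these types and so have no rank. Cry2, a repressor of CLOCK and BMAL1, was at rank 14 (r = 0.42) and Per1 at rank 326 (r = 0.22). At the other end, Arntl was at rank 5803, the last of all genes, with r = -0.63. The 124 values come from 8 libraries and share their depth and cell type, so r is given with no p.

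Arntl encodes BMAL1, which is known to peak in the phase opposite to Dbp. Of 21 types in which Arntl was fitted, the difference between CS and RA mice was positive in 1, with a median of -0.15 on the log2 scale. In AT1 cells, where it was called lower, it stood at 0.0276, 0.0213, 0.0474 and 0.0650 in C2, C5, D2 and D5 and at 0.208, 0.0957, 0.253 and 0.147 in F1, F3, M1 and M3. In alveolar fibroblasts it was at 0.0235 in C2, 0.194 in C5, 0.190 in D2 and 0.170 in D5, and at 0.900 in F1, 0.459 in F3, 0.387 in M1 and 0.183 in M3. Thus C2, mostly the highest CS mouse for Dbp, was the lowest for Arntl there, and F1, the lowest RA mouse for Dbp, was the highest.

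**Figure D5:**
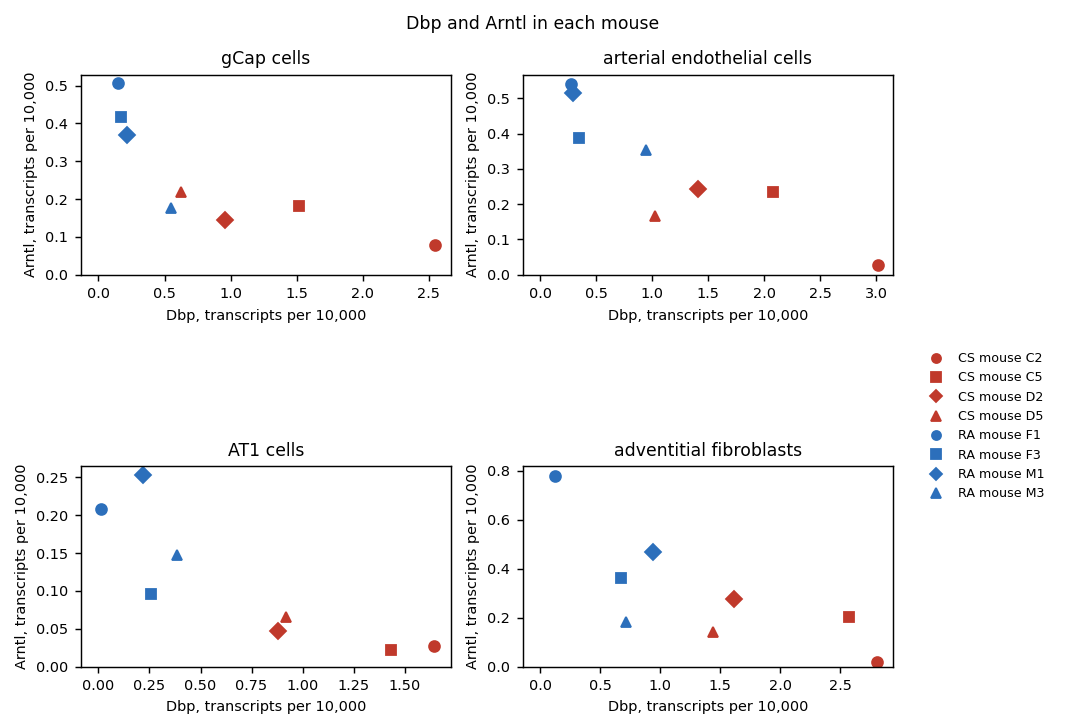
Dbp (x axis) and Arntl (y axis) in each mouse, as mean transcripts per 10,000, in 4 cell types in which Dbp was called. Each point is 1 mouse (red, CS; blue, RA); F1, M1 and F3 lie toward high Arntl and low Dbp and C2 at the opposite end in gCap cells, arterial endothelial cells and adventitial fibroblasts, and no test was made.

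Of the other clock genes, 21 were listed and fitted in 330 combinations of gene and type, of which 7 were called higher and 2 lower in CS mice, where 0.49% and 0.351% of all tests were. In the positive arm and opposite phase, 8 genes including Arntl, Clock, Nfil3, Cry1 and Rora, there were 2 calls higher and 2 lower in 118 fits. The lower calls were Arntl in AT1 cells and Nfil3, a repressor at D-boxes, in ciliated cells, where 0.725% and 1.51% of all genes were called lower. Nfil3 was at 0.151 ± 0.0434 after smoke and 0.254 ± 0.0339 after room air (SD, n = 4 each). The higher calls were Rora, an activator at ROR elements, in ciliated cells, at 2.78 ± 0.256 against 1.58 ± 0.423, and in goblet cells, at 2.60 ± 0.316 against 1.02 ± 0.222 (SD, n = 4 each), types where 2.16% and 0.0825% of all genes were called higher.

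Among 6 further outputs of E-boxes and D-boxes, 4 of 97 fits were called higher and 0 lower. Bhlhe40, a repressor at E-boxes, was at 0.357 ± 0.0728 in AT1 cells of CS mice and 0.0752 ± 0.0443 in those of RA mice (SD, n = 4 each), and it was called in alveolar fibroblasts too, at 1.04 ± 0.166 against 0.478 ± 0.199, where 0.327% of all genes were called higher. Its relative Bhlhe41 was called in AT1 cells, at 0.387 ± 0.0828 against 0.116 ± 0.0363 (SD, n = 4 each), where 0.99% of all genes were called higher. Cry2 in gCap cells stood at 0.377 in C2, 0.229 in C5, 0.176 in D2 and 0.202 in D5, against 0.0671 to 0.0903 in RA mice. Of 7 further genes, 6 of them kinases or parts of ubiquitin ligases and the other Timeless, 1 of 115 fits was called. This was Btrc in gCap cells, at 1.77 ± 0.0870 against 1.27 ± 0.231 (SD, n = 4 each), and for Cry2 and Btrc the share of all genes called higher in gCap cells was 4.1%. With the lane as a term the fits gave 4 calls in place of these 9, and with 1 mouse left out between 2 (without D5) and 8 (without F1).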

How the data were processed

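Right lungs of 8 mice were profiled with the 10x 3' v3 assay, 1 library per mouse and 1 CS and 1 RA library in each of 4 lanes. Per the submitters' notes and the study's methods, the authors aligned reads to GRCm38.p6 with STARsolo (STAR 2.7.3a), removed free RNA with SoupX and annotated cell types, and the deposited matrix holds the resulting expected counts, of which 1.28% were whole numbers within 1e-06. The percent of mitochondrial transcripts of a cell was deposited by the authors and was used to describe cells and for 1 alternative.

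Of 41106 cells, 40074 with 1 of 32 cell type labels were kept and 1032 were left out. No further caller for doublets was run. The highest mitochondrial share was 7.33%. Cells were scaled to 10000 and averaged per mouse and type where a mouse had at least 20 cells, and n is mice. A mean within a mouse and type weights cells equally, and averages over types or lineages weight types equally. Types with at least 3 such mice a group (22) were fitted over all genes found in at least 5% of cells by limma 3.58.1 (R 4.3.3) on log2(level + 1), which understates folds of low genes, with Benjamini-Hochberg adjustment over all genes of a type and a threshold of 0.05. Steps were tested on simulated data. Since averages of expected counts are not whole reads, no count model was used. Levels of types and lineages were compared by exact sign-flip tests over mice, written in Python and checked against SciPy 1.17.1 on simulated differences. Python 3.11.15, NumPy 2.4.6 and pandas 2.3.3 were used. Promoters and positions came from RefSeq and GENCODE on GRCm38; 7 of the 8 genes matched a promoter. A motif is called found where all its letters match.

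The members and the lists of other clock genes and markers were chosen with earlier results of these data known. Values per mouse are given for Dbp in every type where it was called, for each other member in at most the 3 called types with the largest log2 difference, and, picked after their values were seen, for some further types. Other clock genes are named where called, and the 5 genes most like Dbp by each measure. No label ties mice to litters or the lungs to an hour, and p-values set a difference against the variation between these mice. The alternatives were a pseudocount of 0.1, other filters, at least 50 cells a mouse, summed counts, centring, lane or sex as a term, cells at most 5% mitochondrial, and leaving out each mouse.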

Additional observations from a re-analysis of the deposited data

Results flagged for a closer look

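The 16 called combinations and the means over cell types of the 8 genes were searched, in each group of 4 mice, for a mouse far from the others, by the gap to its nearest neighbour as a share of the range (Dixon's test). Of 48 groups, 2 had such a mouse, where 2.4 would be set apart by chance at 1 in 20. Both were the RA mouse M3 for Dbp. In arterial endothelial cells it stood at 0.948 while the other RA mice lay between 0.272 and 0.344, and in gCap cells it stood at 0.550 while the others lay between 0.150 and 0.215. Without M3 the number of types with Dbp called was 4 in place of 6.

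In non-classical monocytes the groups lay apart downward, with a mean level of Dbp of 0.0105 in CS and 0.101 in RA mice, a difference of -0.0909 transcripts per 10,000. Dbp lay apart upward in 9 other types, but its values chose the set. Among all genes fitted, over all types, 5.52% lay apart upward and 4.14% downward. The CS mice C2, C5 and D5 were at 0 and D2 was at 0.0419, and F3, M1 and M3 were at 0.0635, 0.110 and 0.130. The RA mouse F1, the lowest for Dbp in 15 of 18 types, had 2 of these cells and was left out. The values rest on a summed 0.967 UMIs in the CS mice and 6.78 in the RA mice after the removal of free RNA, the gene was found in too few cells to be fitted, and the difference between cell types was not tested.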

How the results depend on the processing

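No difference of the 16 named combinations of a clock output gene and a cell type changed direction under any alternative, and with a pseudocount of 0.1 each log2 difference was over 1.5 times as large, but how many were called depended on all 8 mice. The 16 calls became 1 with no filter on low values, which adds genes both to the fit and to the adjustment, and 4 with lane as a term. With 1 mouse left out they ranged from 2 (without C2) to 10 (without F1 or without M3), and under the remaining alternatives from 13 to 21. The 6 types with Dbp called became 1 with no filter, 2 with lane as a term and 1 to 4 with 1 mouse left out (1 without C2 or C5, 2 without M1, 3 without D2, D5 or F3, and 4 without F1 or M3). The 9 calls of other clock genes became 1 with no filter, 4 with lane as a term and 2 to 8 with 1 mouse left out (3 without C2 or D2, 2 without D5, 4 without F3). The fits without a mouse have fewer mice and that with no filter has more genes. The cause of these changes was not tested, nor was that for lane as a term.

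Of pairs of neighbouring cell types, 3 passed the test, 6 with summed counts and 9 with cells at most 5% mitochondrial, and 0 with 1 mouse left out, where the smallest p is 0.0156. The smallest p and the 16 pairs of a gene limit these counts, which say nothing of stability. The 69 pairs of lineages ranged from 65 to 71 with a pseudocount of 0.1, summed counts, cells at most 5% mitochondrial or 1 mouse left out, the alternatives run for them, and none changed sign. Replicate numbers only name mice and pair nothing, and the fit with lane as a term, given above, is the one that pairs a CS with an RA mouse. Levels rest on averages of sparse counts, and low genes in types with few cells are imprecise.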
